A study of Arabidopsis thaliana with 27 samples.

Results

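The genes described here are morning-high genes of Arabidopsis: in unheated plants their transcripts were far more abundant at the morning harvest than at the afternoon harvest. They were chosen from the control arrays alone. A probe set, the group of short oligonucleotides that reports on one transcript, was taken if the platform annotation gave it a single nuclear gene outside the study's own list of glycerolipid genes, if its brighter control group averaged at least 8 on the log2 scale, and if its mean log2 signal was at least 2 higher in Control24hr (morning) than in Control08hr (afternoon). This gave 76 probe sets, each for a different gene, of 22746 on the array, so a further limit of the rule to the top 150 was never reached. The difference between the control groups chose the genes and is given as a description only.

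Morning-expressed plant genes are under the joint control of light and of the circadian clock, a set of transcriptional regulators that repress each other in turn over the day. CCA1, a MYB-related transcription factor that peaks around dawn, is one of its core parts, and GI, ELF3 and ELF4 are parts that peak later in the day. Genes of carbon and nitrogen use, light signalling and cell growth are among those known to follow such daily courses in leaves, and the clock also gates the response of plants to temperature.

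Wild-type plants of the ecotype Columbia (Col-0) were grown at 22 °C with 16 h of light and 8 h of darkness. Plants of 18 days were moved to 38 °C, starting 3 h into the light phase, and were returned to 22 °C after 24 h. Recovery24hr (24 h after the return, 20 days old) and Heat24hr (24 h of heat, 19 days old) were harvested in the morning, 3 h into the light phase, like Control24hr. Recovery08hr (8 h after the return, 19 days old) and Heat08hr (8 h of heat, 18 days old) were harvested in the afternoon, 11 h into the light phase, like Control08hr. Each treated group had 3 arrays of separate biological replicates. Control24hr had 9 arrays from plants of 18, 19 and 20 days kept at 22 °C, and Control08hr had 6 arrays from such plants of 18 and 19 days. The labels give the tissue as leaf, and the methods say that all parts above ground were taken, so fewer cells of a type and less RNA per cell cannot be told apart. Heat24hr and Heat08hr differ in the length of heat as well as in clock time, and likewise Recovery24hr and Recovery08hr differ in the time since heat. These cannot be told apart.

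All 27 arrays had a trimmed mean signal of 494 to 497, but array medians were lower in heat, at 120 to 131 at Heat24hr and 128 to 134 at Heat08hr, against 160 to 176 elsewhere. Replicate 3 of Recovery08hr stood apart: for probe sets averaging 100 or more, its log2 signals differed from those of replicates 1 and 2 with an SD of 0.586 and 0.675, while replicates 1 and 2 differed with an SD of 0.327, and its main counts are given without it too. Transcripts of heat-shock genes were high in the heated groups, and some stayed above control in recovery, as given at the end. HSFA2, a heat-induced transcription factor, had a mean signal of 4929.9 at Heat24hr, against 14.8 at Control24hr, and of 1182 at Heat08hr, against 19.5 at Control08hr. RCA, the leaf gene for Rubisco activase, was bright in every group, with mean signals from 15088 to 34134. Of the 4 root markers examined, PYK10 alone had a named probe set here. Its mean signal was 1174 at Recovery24hr, 66.7 at Heat24hr, 139 at Recovery08hr and 176 at Heat08hr, against 999 and 1123 in Control24hr and Control08hr, and its part in the results below was not tested.

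In control plants the morning level of the 76 genes exceeded the afternoon level by 2.70 on the log2 scale (median over the genes, range 2.03 to 5.72). No Control24hr array overlapped the Control08hr arrays for any of the 76, and none of the 76 was lower. The rule fixes the direction and favours the lack of overlap. Over all probe sets, 3.18% were higher by 2-fold or more without overlap and 3.17% were lower. The 12 largest differences were those of AT2G15020 (5.72), SAG29 (5.22), AT1G70985 (4.99), JMT (4.74), AT1G55960 (4.67), AT1G64500 (4.65), AT2G41250 (4.54), AT1G62510 (4.45), AT2G27420 (4.44), AT5G15950 (3.96), AT3G15310 (3.83) and AFR (3.73). Among plants of 18 days alone 3 genes fell below the limit of 2 (smallest 1.84), and among plants of 19 days alone 3 did so (smallest 1.5). The last genes inside the limit were AT5G65380 (2.09), AT3G28270 (2.09) and AT3G22060 (2.03), and the first outside it were AT5G64850 (1.99), AT5G47610 (1.98) and AT4G30450 (1.97).

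In treated plants the median level of the genes lay between those of control mornings and afternoons or, at Heat24hr, below both. Taking the median signal of the 76 genes on each array, the Recovery24hr arrays had 431 to 458, the Heat24hr arrays 109 to 122 and the Control24hr arrays 1107 to 1393. In the afternoon the Recovery08hr arrays had 710.3 to 733, the Heat08hr arrays 202 to 211 and the Control08hr arrays 131 to 162. The morning level was thus lowest at the end of the heat, and the afternoon level highest 8 h after the return to 22 °C. Of the 4 treated groups, Recovery08hr held the highest mean of 42 genes (27.3% of all probe sets), Recovery24hr of 22 (25.3%), Heat08hr of 9 (23.9%) and Heat24hr of 3 (23.5%), and Heat24hr held the lowest mean of 45 genes (26.9%). Without replicate 3 of Recovery08hr the highest mean was that of Recovery08hr for 40 genes and of Recovery24hr for 24.

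**Figure D1:**
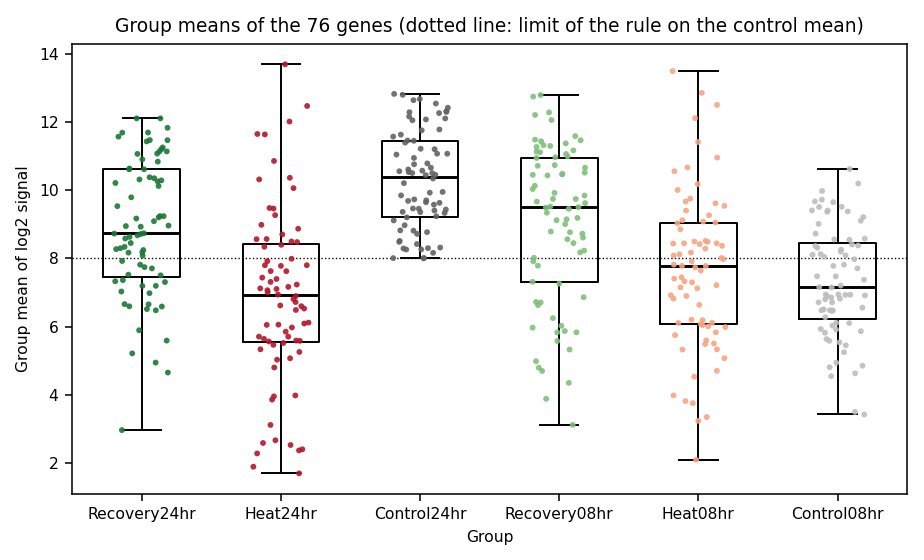
Group means of log2 signal (y axis) of the 76 genes in 6 groups (x axis), 1 point per gene; boxes give the median and quartiles and whiskers the lowest and highest gene. The median gene is at 8.73 in Recovery24hr, 6.92 in Heat24hr and 10.39 in Control24hr, and at 9.49 in Recovery08hr, 7.78 in Heat08hr and 7.15 in Control08hr.

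**Figure D2:**
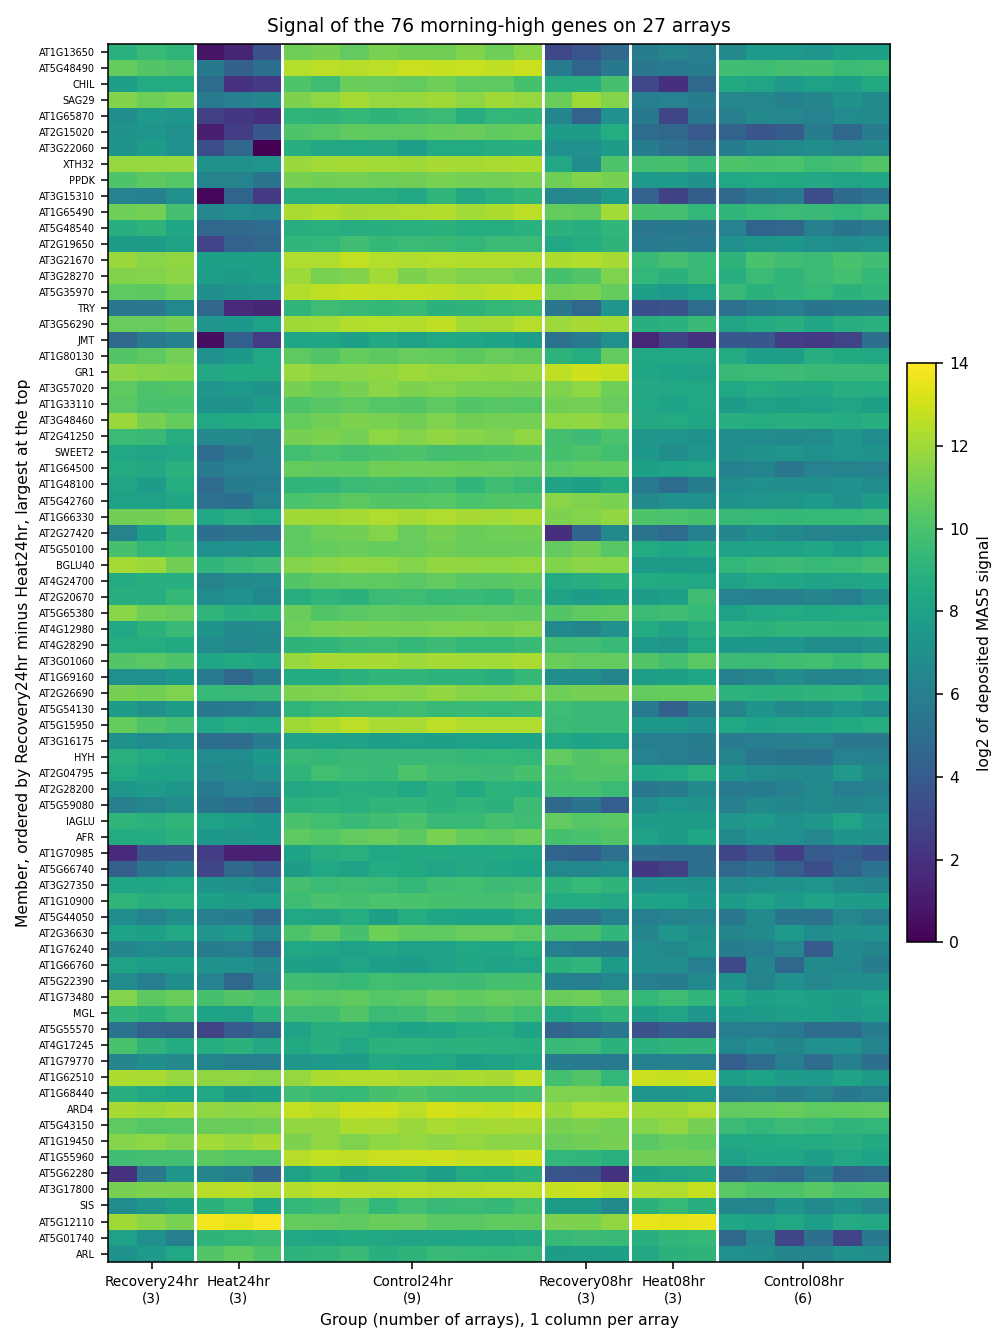
Log2 signal (colour) of the 76 genes (rows) on each of the 27 arrays (columns), with the genes ordered by the difference between Recovery24hr and Heat24hr. Replicate arrays share their colours for most rows, the 9 Control24hr arrays are the brightest block, and the rows at the foot (ARL, AT5G01740, AT5G12110) are brighter at Heat24hr than at Recovery24hr.

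Against control plants of the same clock time, the genes were counted as different where the means were at least 2-fold apart and no arrays overlapped. Because control arrays chose the genes, these counts and differences are a description. At Heat24hr 67 of the 76 genes were lower than in Control24hr (19.9% of all probe sets were) and 2 were higher (13.1%), with a median difference of -3.55. The 2 higher ones were ARL and AT5G12110. At Heat08hr the genes were split: 22 were higher than in Control08hr (8.23% of all probe sets) and 14 lower (15.4%), with a median difference of 0.20. At Recovery08hr 54 were higher than in Control08hr (13.7%) and 5 lower (15.8%), with a median of 2.01, and without replicate 3 of Recovery08hr 51 were higher and 7 lower. At Recovery24hr none was higher than in Control24hr (5.35%) and 49 were lower (5.75%), with a median of -1.38. Without replicate 2 of Heat24hr AT5G12110 was the only gene higher there, without its replicate 1 AT5G01740 joined ARL and AT5G12110, and without replicate 3 of Recovery24hr AT5G12110 was higher at Recovery24hr. These counts with arrays left out or scaled otherwise were chosen after seeing the data. Centring every array on its median signal turned the split over all probe sets at Heat24hr from 2979 higher and 4520 lower to 4595 and 3197, and at Heat08hr from 1871 and 3512 to 3364 and 2267. For the 76 genes the same centring gave 3 higher and 64 lower at Heat24hr, and 25 higher and 9 lower at Heat08hr.

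At Recovery24hr the morning level was regained in part. Of the 76 genes, 45 were lower than in Control24hr both at Recovery24hr and at Heat24hr, comparisons that share the Control24hr arrays, as were 3.89% of all probe sets. All 3 Recovery24hr arrays lay inside the range of the 9 Control24hr arrays for 4 genes: AT1G62510, AT1G19450, AT1G66760 and AT3G28270. The share of all probe sets for which this holds was not counted, so the 4 genes are only a description. The mean at Recovery24hr was above that of Control24hr for 7 genes (45.4% of all probe sets). It was below that of Control08hr for 4, AT1G70985, AT5G22390, AT5G55570 and AT4G12980 (54.2% of all probe sets). In the afternoon 21 genes had a Recovery08hr mean above the morning mean of control plants (46.0% of all probe sets), among them HYH, GR1, PPDK and IAGLU, and 23 did so without replicate 3 of Recovery08hr. At Recovery08hr and Recovery24hr together, 30 genes were higher than control in the first and lower than control in the second (0.528% of all probe sets), and 29 were without that replicate. These shares describe genes that were chosen for a high Control24hr and a low Control08hr level.

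The tests below use no control array. Differences are in log2 with their standard error from limma, and a gene was called if its adjusted p (Benjamini-Hochberg over all 22746 probe sets) was under 0.05 and its change at least 2-fold. In the morning, Recovery24hr against Heat24hr, 53 of the 76 genes were higher (18.8% of all probe sets were) and 5 lower (11.3%), with a median difference of 1.96, against 0.09 over all probe sets. In the afternoon, Recovery08hr against Heat08hr, 40 were higher (16.4%) and 10 lower (12.1%), with a median of 1.54, against 0.00 over all probe sets. Without replicate 3 of Recovery08hr the afternoon counts were 38 and 11. For 35 genes the recovery level was higher at both clock times (7.14% of all probe sets), and for 3, SIS, ARL and AT5G12110, it was lower at both (3.11%). AT1G13650, AT5G59080, AT1G69160 and AT4G12980 were higher in recovery in the morning and lower in the afternoon (1.76%). Without replicate 3 of Recovery08hr these counts were 35, 3 and 5. The 5 genes lower in the morning became 3 without replicate 2 of Heat24hr, and likewise 3 without replicate 2 of Recovery24hr. Centring the arrays moved the median of all probe sets to -0.39 in the morning and -0.35 in the afternoon and turned their split from 4275 higher and 2580 lower to 2741 and 4922 in the morning, and from 3723 and 2741 to 2553 and 4283 in the afternoon. For the 76 genes it gave 43 higher and 7 lower in the morning, and 37 higher and 11 lower in the afternoon.

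Within treated plants few of the genes were called in the direction that chose them when morning was set against afternoon. Their shares, 6.58% in heat and 9.21% in recovery, were near those of all probe sets. In heat, Heat24hr against Heat08hr, 5 of the 76 were higher (4.70% of all probe sets were) and 24 lower (7.16%), with a median difference of -0.66, against -0.03 over all probe sets. The 5 higher ones were BGLU40, AT1G19450, ARL, AT5G15950 and HYH. In recovery, Recovery24hr against Recovery08hr, 7 were higher (6.08%) and 17 lower (4.97%), with a median of -0.33, against -0.03 over all probe sets. No gene was called higher in both, but only 0.0791% of all probe sets were, so this count tells little about the 76 genes. AT1G62510, AT1G13650, AT5G59080, XTH32 and AT4G12980 were lower at Heat24hr than at Heat08hr and higher at Recovery24hr than at Recovery08hr (5 genes, 2.27% of all probe sets), HYH was the reverse (1.11%), and AT1G64500, AT3G56290, AT5G42760, SWEET2, AT2G04795 and AT5G50100 were lower in both (6 genes, 0.154%). Without replicate 3 of Recovery08hr these counts were 6, 1 and 8. The counts in recovery are the least firm here. They were 9 higher and 19 lower without replicate 3 of Recovery08hr, and 0 and 0 without its replicate 1 or its replicate 2. Without replicate 1, 2 or 3 of Recovery24hr they were 3 and 11, 0 and 0, and 0 and 2. The counts over all 22746 probe sets changed alike. They were 1383 and 1130 with all arrays, and 2314 and 1785 without replicate 3 of Recovery08hr. Without its replicate 1 or its replicate 2 they were 0 and 0. Without replicate 1, 2 or 3 of Recovery24hr they were 413 and 282, 0 and 0, and 32 and 12. At an adjusted p under 0.01 no gene was called in recovery, and at an unadjusted p under 0.05 limma gave 44 of the 76, against 35.4% of all probe sets. In heat, leaving out 1 array gave 4 higher each time and 17 to 25 lower.

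The difference between the morning-minus-afternoon change of recovering plants and that of heated plants was tested in 1 fit over the 12 treated arrays. It was called positive for 20 of the 76 genes (15.1% of all probe sets) and negative for 12 (14.5%), which is 26.3% and 15.8% of them. Without replicate 3 of Recovery08hr the counts were 22 and 13. The most positive were AT1G13650 (9.5 ± 0.92), XTH32 (5.9 ± 0.86), AT5G48490 (5.74 ± 0.57) and AT4G12980 (3.82 ± 0.45), and the most negative AT1G68440 (-3.4 ± 0.28), HYH (-2.88 ± 0.35), AT5G01740 (-2.61 ± 0.57) and AT5G54130 (-2.54 ± 0.53). The value of AT1G13650 rests on signals near the lowest of the scale, at 1.67, 2.73 and 11.1 at Heat24hr and 8.22, 13.6 and 28.6 at Recovery08hr, so its size and its rank are not well measured.

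**Figure D3:**
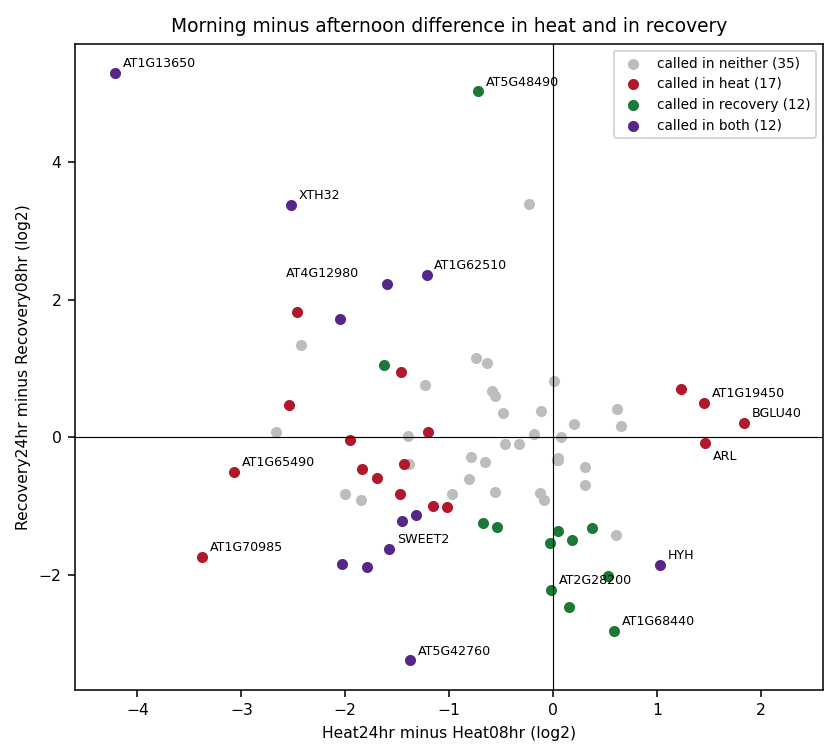
Morning minus afternoon difference (log2) of the 76 genes in heated plants (x axis) and in recovering plants (y axis), 1 point per gene, coloured by the tests in which it was called. No gene called in both tests lies at the upper right, where BGLU40, AT1G19450 and AT5G15950, called in heat alone, are found, and the 5 genes of opposite sign at the upper left (AT1G13650, XTH32, AT4G12980, AT1G62510 and AT5G59080) lie opposite HYH at the lower right.

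Sugar and nitrate transporters, with 5 genes, were the largest of the 8 roles assigned here after values were seen. SAG29 (also SWEET15) and SWEET2 are SWEET sugar transporters, AT1G19450 is a sugar transporter of the ERD6-like family, and AT3G21670 (NPF6.4) and AT2G26690 (NPF6.2) belong to the NRT1/PTR family of nitrate and peptide transporters. SAG29 had signals of 2590.1, 1894 and 2316 at Recovery24hr, against 53.9, 68.4 and 85.6 at Heat24hr, and of 1887, 4059 and 2755 at Recovery08hr, against 63.3, 73.3 and 61.8 at Heat08hr. Its control arrays spanned 2396 to 4386 with a median of 3571 in the morning and 70.4 to 147 with a median of 89.3 in the afternoon. At either clock time the gene was in or below the range of control afternoons in heat, and bright in recovery, with no overlap between the stages. It was higher at Recovery24hr than at Heat24hr by 5.05 ± 0.23 (limma adjusted p = 0.000407) and at Recovery08hr than at Heat08hr by 5.39 ± 0.31 (adjusted p = 0.000577), while its difference between Recovery24hr and Recovery08hr was -0.3 ± 0.32 (adjusted p = 0.557). SWEET2 had 321, 294 and 328 at Recovery24hr, against 31.1, 50.4 and 78.7 at Heat24hr, and 976, 1079 and 861 at Recovery08hr, against 173, 121 and 156 at Heat08hr. Its morning arrays were below its afternoon arrays in both stages, with -1.58 ± 0.37 in heat (adjusted p = 0.0364) and -1.62 ± 0.17 in recovery (adjusted p = 0.0151).

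Of the 5 transporters, AT1G19450 alone was brighter at Heat24hr than at Control24hr. Its signals were 4243, 3658 and 4533 at Heat24hr, against 2430.1 to 3574 with a median of 3074 at Control24hr, and 1375, 1626 and 1520.1 at Heat08hr, against 339.6 to 419 with a median of 371 at Control08hr. It was higher at Heat24hr than at Heat08hr by 1.46 ± 0.14 (limma adjusted p = 0.0037), with no overlap between the arrays. The nitrate transporter AT3G21670 had 3785, 2925 and 3255 at Recovery24hr, against 236, 243 and 248 at Heat24hr, a rise of 3.77 ± 0.15 (adjusted p = 0.000407). AT2G26690 had 2201, 2032 and 2546 at Recovery24hr, against 678, 727 and 709.7 at Heat24hr (1.68 ± 0.15, adjusted p = 0.000953). At Heat08hr it too was above control, with 1566, 1667 and 1638, against 463 to 566 with a median of 513 at Control08hr. Of the 5 transporters, 4 were called higher at Recovery24hr than at Heat24hr, as were 53 of all 76 genes and 18.8% of all probe sets. AT1G19450, at -0.55 ± 0.17 (limma adjusted p = 0.0455), did not reach 2-fold. At Recovery08hr all 5 were above Control08hr by the count of arrays that do not overlap. So were 54 of all 76 genes and 13.7% of all probe sets.

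The 4 MATE transporters, which export organic compounds from the cytosol, were AT1G33110, AT5G65380, AT1G66760 and AT5G44050. AT1G33110 had signals of 1371, 1005 and 1002 at Recovery24hr, against 146, 139.7 and 195 at Heat24hr, and 2100.02, 2132 and 1703 at Recovery08hr, against 339, 275 and 324 at Heat08hr. Both differences were called, at 2.81 ± 0.22 (limma adjusted p = 0.000717) and 2.66 ± 0.17 (adjusted p = 0.000712). AT5G65380 was higher at Recovery24hr than at Heat24hr by 2.08 ± 0.24 (adjusted p = 0.00191), and AT1G66760 at Recovery08hr than at Heat08hr by 1.98 ± 0.51 (adjusted p = 0.0291). AT5G44050 was called in neither comparison. All 4 were below Control24hr at Heat24hr, with log2 differences of -3.03, -1.51, -1.06 and -2.75 in the order named. By the count of arrays that do not overlap, so were 67 of all 76 genes and 19.9% of all probe sets.

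Of the 4 genes of light signalling and transcription, HYH encodes the bZIP factor closest to HY5, AFR an F-box protein of far-red light signalling, TRY a MYB protein that inhibits trichome formation and AT2G28200 a C2H2 zinc-finger protein. HYH had signals of 479, 377 and 311 at Recovery24hr, against 107, 111 and 179 at Heat24hr, and 1609, 1210.2 and 1352 at Recovery08hr, against 73.96, 64.2 and 53.2 at Heat08hr. Control arrays gave 622 to 717 with a median of 690.02 in the morning and 39.6 to 78.2 with a median of 58.7 in the afternoon. The afternoon level of recovering plants was therefore above every control morning, whereas that of heated plants lay in the range of control afternoons. HYH was higher at Recovery08hr than at Heat08hr by 4.45 ± 0.2 (limma adjusted p = 0.000454) and higher at Heat24hr than at Heat08hr by 1.02 ± 0.26 (adjusted p = 0.0428), but lower at Recovery24hr than at Recovery08hr, with -1.85 ± 0.23 (adjusted p = 0.0196). AT2G28200 had 172, 211 and 170.5 at Recovery24hr, against 886, 949 and 747 at Recovery08hr (-2.22 ± 0.19, adjusted p = 0.0131), and 55.3, 75 and 70.8 at Heat24hr, against 49.02, 59.02 and 106 at Heat08hr (-0.02 ± 0.33, adjusted p = 0.973). AFR followed the same course in recovery, with 393, 388 and 507 at Recovery24hr, against 959, 1029 and 1165 at Recovery08hr (-1.3 ± 0.19, adjusted p = 0.0239). TRY had signals of 46.4, 26.9 and 159.6 at Recovery08hr, against 10.5, 12.02 and 31.2 at Heat08hr, with replicates spread in both. All 4 genes were called higher at Recovery24hr than at Heat24hr, as were 53 of all 76 genes and 18.8% of all probe sets. TRY was among them by 3.31 ± 0.92 (limma adjusted p = 0.0338), from signals of 47.9, 46.5 and 93.8, against 24.3, 3.30 and 2.69. The last values are near the lowest of the scale, so the size of its rise is not well measured.

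In the group of hormone metabolism and growth, JMT methylates jasmonic acid, IAGLU attaches glucose to the auxin indole-3-acetic acid, and ARL, ARGOS-LIKE, promotes organ growth. ARL stood out as one of the few genes that heat left high. Its signals were 1199, 1513 and 1139 at Heat24hr, against 456 to 702 with a median of 651 at Control24hr, and 349.6, 513 and 552 at Heat08hr, against 80.96 to 140 with a median of 126 at Control08hr, so no heated array overlapped the controls of its clock time. In recovery it had 142, 194 and 329.8 at Recovery24hr and 202, 221 and 239.6 at Recovery08hr. It was lower at Recovery24hr than at Heat24hr, with -2.61 ± 0.34 (limma adjusted p = 0.00285), lower at Recovery08hr than at Heat08hr, with -1.07 ± 0.22 (adjusted p = 0.0146), and higher at Heat24hr than at Heat08hr by 1.46 ± 0.23 (adjusted p = 0.0117). IAGLU had 574, 486 and 578 at Recovery24hr, against 265, 222 and 179.7 at Heat24hr (1.31 ± 0.2, adjusted p = 0.00434), and 1614, 1257 and 1347 at Recovery08hr, against 209.7, 217 and 211 at Heat08hr (2.72 ± 0.16, adjusted p = 0.000579). JMT had 29.04, 53.1 and 72.2 at Recovery24hr, against 1.39, 19.4 and 5.43 at Heat24hr (3.19 ± 1.0, limma adjusted p = 0.0495). Its Heat24hr signals reach down to near the lowest of the scale, so the size of its rise is not well measured. Each Recovery24hr array was below its control mornings of 234 to 365 with a median of 296.

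Among genes of amino acid, sulphur and pyruvate metabolism, AT5G15950 encodes an S-adenosylmethionine decarboxylase of polyamine synthesis, ARD4 an acireductone dioxygenase of methionine salvage, MGL the methionine-degrading methionine gamma-lyase and PPDK pyruvate, orthophosphate dikinase. PPDK had signals of 1153, 1427 and 1251 at Recovery24hr, against 77.4, 75.98 and 42.01 at Heat24hr, and 1979, 2565 and 2219 at Recovery08hr, against 188, 189 and 148 at Heat08hr. It rose by 4.34 ± 0.28 in the morning (limma adjusted p = 0.000537) and 3.69 ± 0.19 in the afternoon (adjusted p = 0.000508). AT5G15950 had 1649, 1115 and 903 at Recovery24hr, against 333, 409 and 396 at Heat24hr (1.65 ± 0.26, adjusted p = 0.00515), while its control mornings spanned 4124 to 6288 with a median of 5067. It was higher at Heat24hr than at Heat08hr by 1.24 ± 0.17 (adjusted p = 0.00845). Its Heat08hr arrays, at 177, 175 and 133, were below control afternoons of 281 to 413 with a median of 323. ARD4 had 4547, 4043 and 4647 at Recovery24hr, against 3251, 3052 and 3318 at Heat24hr, and 3878, 5178 and 5233 at Recovery08hr, against 4046, 4125 and 5171 at Heat08hr, and neither ARD4 nor MGL was called in any of the 5 tests.

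GR1, a glutathione reductase that regenerates reduced glutathione, and AT1G64500, of the glutaredoxin family, were the redox genes. GR1 had signals of 3088, 2769 and 2655 at Recovery24hr, against 354, 363 and 365 at Heat24hr, and 6447, 8001 and 6853 at Recovery08hr, against 295, 281 and 259 at Heat08hr. The control arrays lay at 2999 to 4019 with a median of 3554 in the morning and 688 to 788 with a median of 722 in the afternoon, so heated arrays were below and Recovery08hr arrays above all of them. Its rise of 4.67 ± 0.16 in the afternoon (limma adjusted p = 0.000354) was larger than that of 2.97 ± 0.13 in the morning (adjusted p = 0.000407), with -1.7 ± 0.18 for the difference between them (adjusted p = 0.000179). AT1G64500 had 395, 346 and 499 at Recovery24hr, against 1367, 1509.6 and 1510.4 at Recovery08hr (-1.84 ± 0.2, adjusted p = 0.0152), and 52.7, 75.1 and 73.2 at Heat24hr, against 250.3, 276 and 289 at Heat08hr (-2.04 ± 0.18, adjusted p = 0.00328). Morning arrays of this gene were thus below afternoon arrays in both stages, the opposite of its control arrays at 1505 to 2018 with a median of 1704 in the morning and 45.4 to 80.4 with a median of 74.2 in the afternoon. CHIL, a chalcone isomerase-like protein that promotes flavonoid synthesis, had 231, 379 and 385 at Recovery24hr, against 31.2, 4.01 and 5.17 at Heat24hr (5.22 ± 0.83, adjusted p = 0.00524), and 423, 436 and 984 at Recovery08hr, against 8.08, 3.86 and 26.8 at Heat08hr (5.91 ± 0.78, adjusted p = 0.00332). Its heated arrays were scattered near the foot of the scale and far below control afternoons of 186 to 366 with a median of 271.

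XTH32, a xyloglucan endotransglucosylase/hydrolase that remodels the cell wall, and AT1G48100, a polygalacturonase of pectin breakdown, were the wall genes. XTH32 had signals of 3497, 3683 and 3729 at Recovery24hr, against 337, 117 and 1074 at Recovery08hr, and of 146, 148 and 157 at Heat24hr, against 892, 980.3 and 730.3 at Heat08hr. The morning arrays of recovery were close together and just below the control range of 3853 to 5049.9 with a median of 4400.3, while those of Heat24hr were close together and far below it. It was higher at Recovery24hr than at Heat24hr by 4.6 ± 0.13 (limma adjusted p = 0.000398) and lower at Heat24hr than at Heat08hr, with -2.52 ± 0.15 (adjusted p = 0.00216). The Recovery08hr arrays were spread, and the difference of 3.38 ± 0.79 between Recovery24hr and Recovery08hr (adjusted p = 0.046) was 4.19 without replicate 3 of Recovery08hr. AT1G48100 had 292, 202 and 411 at Recovery24hr, against 29.3, 57.99 and 64.3 at Heat24hr (2.6 ± 0.41, adjusted p = 0.00523).

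The lipid-binding and lipid-hydrolysing proteins diverged. AT5G48490 is related to DIR1, a lipid-transfer protein of systemic immunity, AT1G62510 belongs to the lipid-transfer and seed-storage albumin family, AT1G55960 has a START lipid-binding domain and AT3G48460 is a GDSL-type lipase. AT5G48490 had signals of 1655, 1226 and 1093 at Recovery24hr, against 57.1, 22.5 and 50.2 at Recovery08hr, and of 50.8, 19.9 and 34.2 at Heat24hr, against 48.4, 52.9 and 60.6 at Heat08hr. Control arrays spanned 5569.8 to 7408 with a median of 6439 in the morning and 739 to 974 with a median of 819 in the afternoon, so the gene was below both in heat and at Recovery08hr and between them at Recovery24hr. Its rise at Recovery24hr was 5.02 ± 0.41 over Recovery08hr (limma adjusted p = 0.0131) and 5.32 ± 0.39 over Heat24hr (adjusted p = 0.000642).

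AT1G62510 was lower in recovery than in heat in the afternoon. It had signals of 895, 1155 and 606 at Recovery08hr, against 7547, 6935 and 7718 at Heat08hr (-3.11 ± 0.27, limma adjusted p = 0.00111), with control afternoons at 194 to 274 with a median of 213. In the morning it had 4892, 4738 and 3679 at Recovery24hr, against 3319, 3299 and 2929 at Heat24hr (0.47 ± 0.17, adjusted p = 0.0771), with control mornings at 3578 to 6455 with a median of 4882. It was therefore brightest after 8 h of heat, at a clock time when control plants held little of it. AT1G55960 had 616, 586 and 473 at Recovery08hr, against 1969, 2014 and 1968 at Heat08hr (-1.84 ± 0.16, adjusted p = 0.00118), and its Heat08hr arrays too were above control afternoons at 225 to 318 with a median of 288. AT3G48460 rose at both clock times, to 3872, 2238 and 1673 at Recovery24hr, against 333, 365 and 372 at Heat24hr (2.77 ± 0.33, adjusted p = 0.00212), and to 3142, 3456 and 2667 at Recovery08hr, against 354, 377 and 314 at Heat08hr (3.15 ± 0.17, adjusted p = 0.000562).

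**Figure D4:**
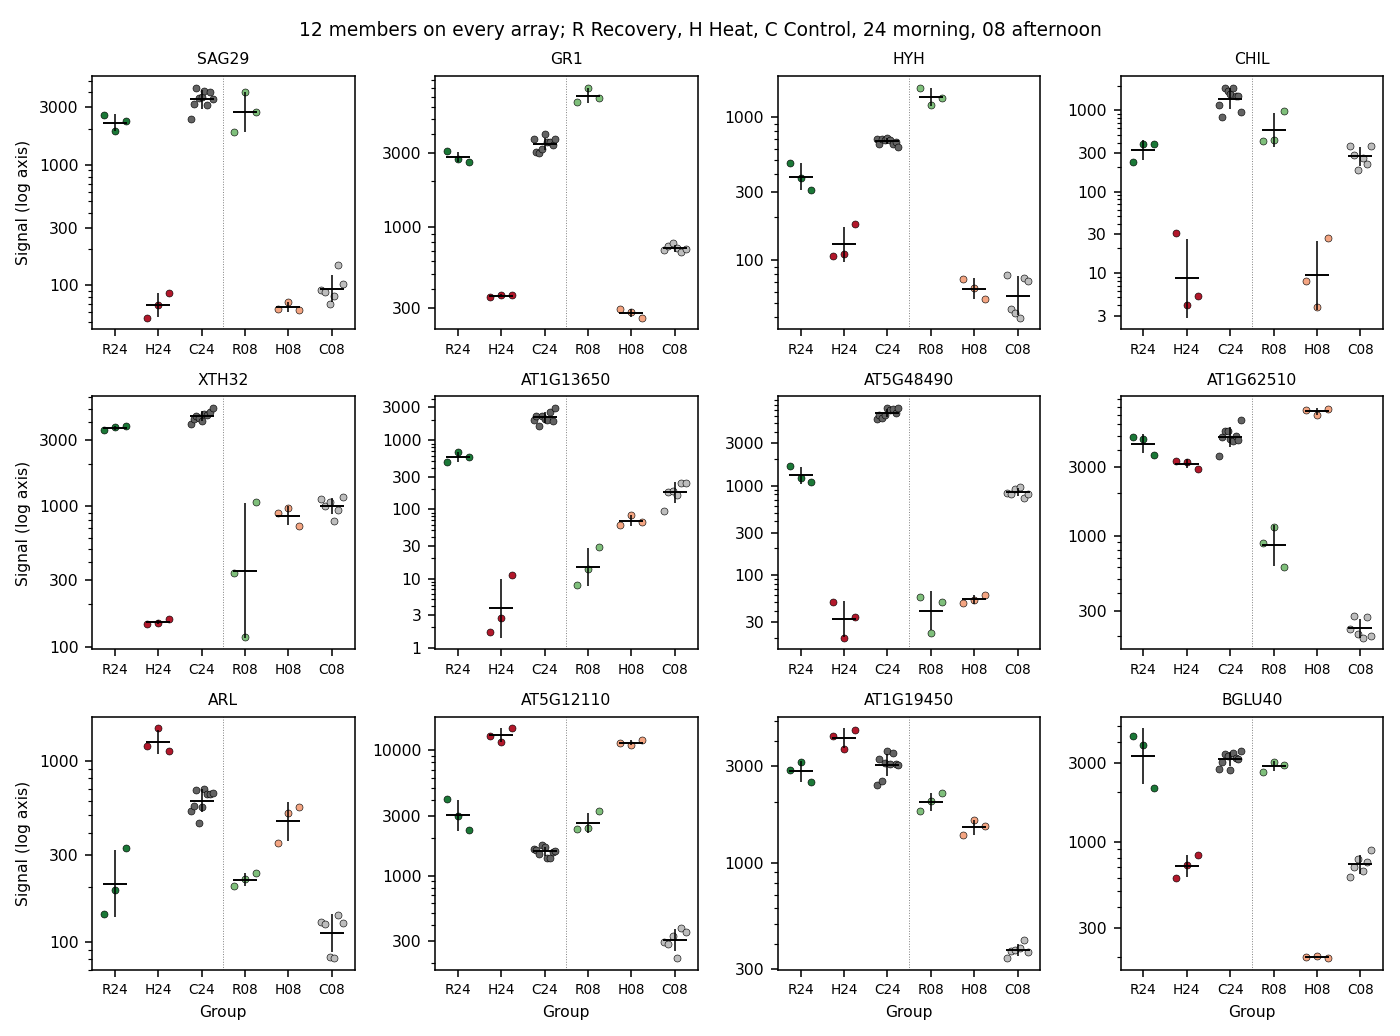
Signals on every array (points, log axis) of 12 of the genes in 6 groups, with the geometric mean (horizontal bar) and 1 SD of the log2 values (vertical bar); the dotted line parts morning from afternoon. SAG29, GR1 and CHIL are low on all 6 heated arrays and high on all 6 recovery arrays, ARL and AT5G12110 are highest at Heat24hr, and XTH32, AT1G13650 and AT5G48490 are high at Recovery24hr and low at Recovery08hr.

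**Figure D5:**
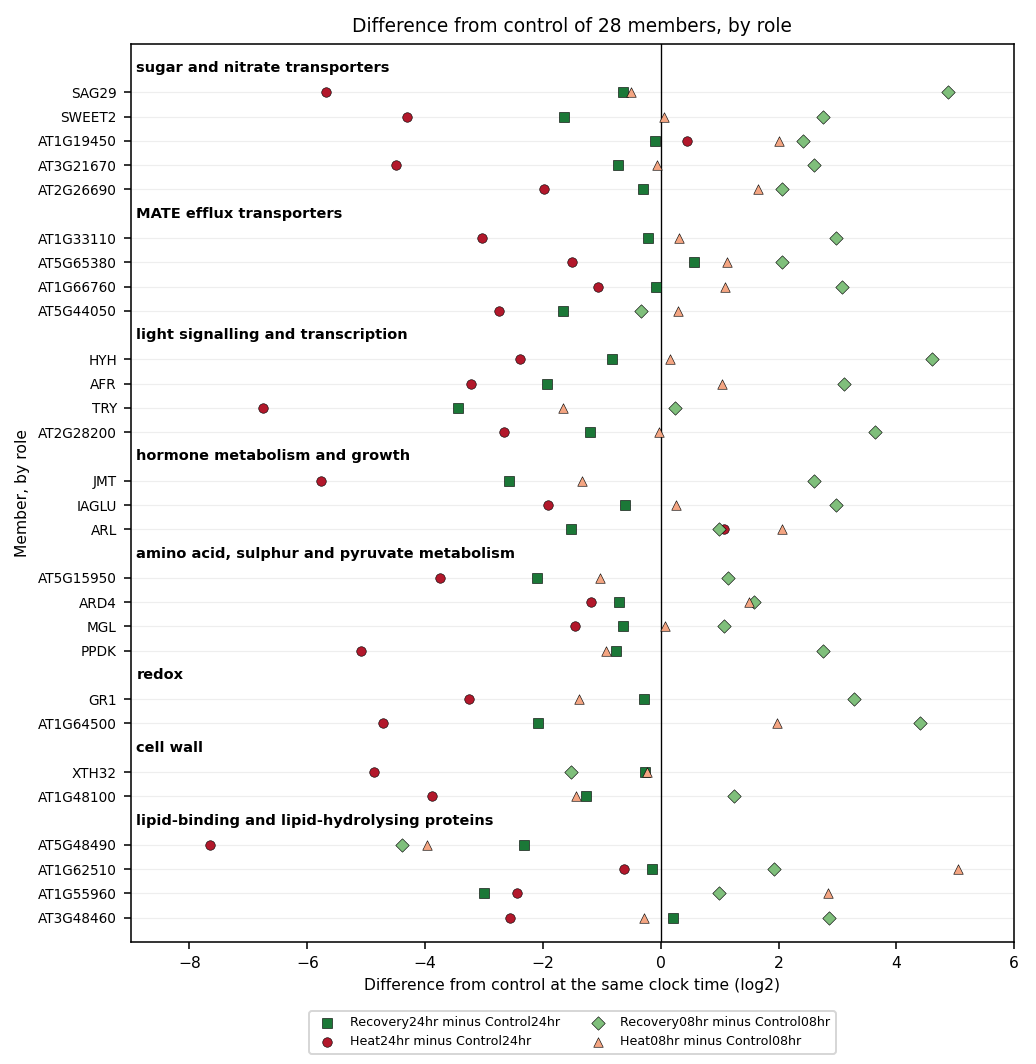
Difference from control at the same clock time (x axis, log2) of the 28 genes with an assigned role (rows), with 1 symbol for each of the 4 treated groups. Of these genes, ARL and AT1G19450 alone lie right of 0 at Heat24hr (1.08 and 0.44), and most of the genes lie right of 0 at Recovery08hr.

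The 48 genes with no role assigned here included both the largest rise in the morning and the largest fall in the afternoon. AT1G13650 had signals of 490.4, 679 and 571 at Recovery24hr, against 1.67, 2.73 and 11.1 at Heat24hr (7.28 ± 0.72, limma adjusted p = 0.00126), and 8.22, 13.6 and 28.6 at Recovery08hr, against 59.9, 83.7 and 64.9 at Heat08hr (-2.23 ± 0.48, adjusted p = 0.0159). Its morning level in recovery was well above its other treated groups but below every control morning, which spanned 1619 to 2948 with a median of 2052. The Heat24hr signals were near the lowest value of the scale. AT5G62280 had 13.1, 12.02 and 4.14 at Recovery08hr, against 242, 287 and 343 at Heat08hr, the largest fall in the afternoon at -5.05 ± 0.49 (limma adjusted p = 0.00143). Its Recovery08hr signals were dim, so the size of this fall is not well measured. The Recovery24hr arrays of AT5G62280 were scattered, at 4.05, 46.4 and 155.

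AT5G12110, which encodes an elongation factor 1-beta of protein synthesis, was far brighter in heat than in any other condition. It had 4051, 3002 and 2299.9 at Recovery24hr, against 13099, 11721 and 15013 at Heat24hr (-2.12 ± 0.25, limma adjusted p = 0.00211), and 2375, 2384 and 3279 at Recovery08hr, against 11361, 11041 and 12166 at Heat08hr (-2.12 ± 0.19, adjusted p = 0.00118). All treated arrays were above the controls of their clock time, which lay at 1385 to 1756 with a median of 1559 in the morning and 218 to 381 with a median of 312 in the afternoon. SIS, a gene named for its induction by salt, had 107, 167 and 248 at Recovery24hr, against 509, 655 and 306 at Heat24hr (-1.51 ± 0.42, adjusted p = 0.0353), and was also lower in recovery in the afternoon (-1.74 ± 0.33, adjusted p = 0.0109). AT5G01740 had 259, 132 and 64.8 at Recovery24hr, against 561, 610.5 and 682 at Heat24hr (-2.24 ± 0.51, adjusted p = 0.0177), and 678, 762 and 712 at Recovery08hr, against 462, 588 and 631 at Heat08hr (0.37 ± 0.18, adjusted p = 0.16). Its afternoon level was thus high in both stages, although its control afternoons were at 7.36 to 87.8 with a median of 30.7.

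BGLU40, of the beta-glucosidase family, showed the largest morning rise within heat. It had 604, 724 and 827 at Heat24hr, against 201, 201 and 196 at Heat08hr (1.84 ± 0.15, limma adjusted p = 0.00296), with replicates close together. Its control afternoons spanned 609 to 888, above the Heat08hr arrays and around the Heat24hr arrays. In recovery it had 4394, 3853 and 2109.6 at Recovery24hr, against 2641, 3023 and 2921 at Recovery08hr (0.2 ± 0.31, adjusted p = 0.682), around the control mornings of 2726 to 3553 with a median of 3224 at both clock times. AT1G65490 showed the reverse in heat, with 88.98, 108 and 94.2 at Heat24hr, against 973, 898 and 616 at Heat08hr (-3.07 ± 0.21, limma adjusted p = 0.00244). So did AT1G69160 with 56.5, 26.2 and 57.8, against 226, 252 and 300.4 (-2.55 ± 0.35, adjusted p = 0.00848). AT1G70985 did too, with 5.59, 2.46 and 2.46, against 34.2, 33.8 and 32.7 (-3.38 ± 0.36, adjusted p = 0.00447). Its Heat24hr signals were near the lowest of the scale, so the size of its fall is not well measured.

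In recovery the largest morning falls were those of AT5G42760 and AT1G68440. AT5G42760 had 262, 254 and 297 at Recovery24hr, against 2889.8, 2521 and 2285 at Recovery08hr (-3.24 ± 0.18, limma adjusted p = 0.0118), and AT1G68440 had 446, 339 and 283, against 2480.2, 2531 and 2378 (-2.82 ± 0.22, adjusted p = 0.0129). For both genes the Recovery08hr arrays lay above the highest control morning, which spanned 1034 to 1433 with a median of 1168 for AT5G42760 and 654 to 1127 with a median of 828 for AT1G68440. AT5G54130 likewise had 203, 142 and 205, against 799, 685 and 720.2 (-2.02 ± 0.21, adjusted p = 0.0151). AT4G12980 had 321, 519.6 and 691 at Recovery24hr, against 103, 82.2 and 134 at Recovery08hr (2.22 ± 0.35, adjusted p = 0.0262), and 150.1, 102 and 109.97 at Heat24hr, against 387, 271 and 446 at Heat08hr (-1.6 ± 0.26, adjusted p = 0.0124). It stayed in all treated groups below its control mornings of 1889.8 to 2699.9 with a median of 2392.

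Of the 12 genes with the largest control difference, the remaining 4 were far from their morning level in heat and only partly back in recovery. AT2G15020 had 144, 164 and 131 at Recovery24hr, against 2.29, 5.93 and 14.1 at Heat24hr (4.66 ± 0.66, limma adjusted p = 0.00361), with control mornings at 1153 to 1754 with a median of 1508. AT2G41250 had 741, 701 and 424, against 95.5, 97.8 and 76.99 (2.75 ± 0.27, adjusted p = 0.0012), with control mornings at 2186 to 3269.7 with a median of 2679. AT2G27420, a papain-like cysteine protease, had 77.4, 241 and 526.4, against 34.1, 42.4 and 38.5 (2.49 ± 0.7, adjusted p = 0.0352), and its 3 Recovery24hr arrays were spread. AT3G15310, annotated as a pseudogene in RefSeq, had 74.5, 71.6 and 132, against 1.18, 22.7 and 5.15 (4.11 ± 1.08, adjusted p = 0.0288). Of the genes nearest the limit of the rule, AT3G28270 rose by 3.63 ± 0.14 (adjusted p = 0.000407), AT3G22060 by 4.66 ± 1.17 (adjusted p = 0.0246) and AT5G65380 as given above. The value of AT3G22060 rests on Heat24hr signals of 10.1, 24.4 and 1.03, the last near the lowest of the scale, so its size is not well measured. The sizes for AT2G15020 and AT3G15310 are likewise not well measured, as their Heat24hr signals reach down to 2.29 and 1.18.

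CCA1, the dawn-phased clock gene, was not among the 76, as the platform annotation does not name its probe set, which was identified through the study's own gene tables. It had signals of 1644, 884 and 727 at Recovery24hr, against 148, 177 and 116 at Heat24hr (2.81 ± 0.36, limma adjusted p = 0.00264), and of 2684, 2745 and 2402 at Recovery08hr, against 208, 185 and 185 at Heat08hr (3.76 ± 0.15, adjusted p = 0.000369). The mean signal of CCA1 in control plants was 4167 in the morning and 41.6 in the afternoon. Like many of the 76 genes, it was below its morning level at Heat24hr and above its afternoon level at Recovery08hr. Over the 6 group means of log2 signal, the genes with courses most like CCA1 were AFR (Pearson r = 0.973), AT3G27350 (0.958), AT1G66760 (0.950), AT1G64500 (0.944) and AT2G41250 (0.932). These r are over 6 points, 2 of them the control groups that chose the genes, and CCA1 has a large control difference of its own, so a high r is in part fixed by the choice.

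Of 13 morning clock genes listed, CCA1 was the only one with a named probe set, and of 13 evening clock genes 6 were named. LKP2, one of the 6, differed by only 0.01 (log2) between control mornings and afternoons, while the others were lower in control mornings. None of the 6 was called higher at Recovery24hr than at Heat24hr (18.8% of all probe sets were). Lower there were 4, ELF3, ELF4, COR27 and COR28 (11.3%). None was higher at Recovery08hr than at Heat08hr (16.4%) and 3 were lower, GI, COR27 and COR28 (12.1%). GI, which promotes flowering in long days, had a mean signal of 710.5 at Recovery24hr, against 1043 at Heat24hr (-0.56 ± 0.14, limma adjusted p = 0.0273), and of 32.05 at Recovery08hr, against 1183 at Heat08hr (-5.22 ± 0.19, adjusted p = 0.000354). ELF4, a part of the evening complex, had 222 at Recovery24hr, against 1579 at Heat24hr (-3.07 ± 0.54, adjusted p = 0.00743). ELF4 was the evening gene called higher at Heat24hr than at Heat08hr (1.66 ± 0.11, adjusted p = 0.00243), and GI the one called higher at Recovery24hr than at Recovery08hr (4.48 ± 0.21, adjusted p = 0.0118).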

How the data were processed

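Transcript levels came from 27 Affymetrix ATH1 arrays, 1 colour each, and the labels gave the groups. The deposited values are signal intensities on a linear scale that the authors made with MAS5 in GeneSpring version 12, 1 per probe set, with a lowest value of 1. The methods also name a baseline to the median of all samples. The deposited values are not centred in that way, and their 2% trimmed mean is nearly equal on all arrays. No detection calls were used, and the number of arrays limits the precision.

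Tests were 2-sided limma fits (version 3.58.1 under R 4.3.3) of log2 signals by lmFit and eBayes. Each fit held the arrays of its own groups alone, with the variance moderated over all probe sets and Benjamini-Hochberg adjustment over all 22746. Fits were tested on simulated data. Replicates are the biological replicates of the labels. Control ages were pooled, as in the study's methods. The main fits did not pair arrays by replicate number. Python 3.11.15, pandas 2.3.3, numpy 2.4.6 and matplotlib 3.10.9 served for the summaries and figures.

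The platform annotation gave 13513 probe sets 1 gene, 503 several and 8730 none, and 13316 with 1 nuclear gene were outside the glycerolipid list of 227 probe sets. Both limits of the rule were passed by 190 probe sets, of which 114 had no gene in the annotation. Of the 76 members, 16 have a symbol other than the locus name.

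The members and the gene lists were chosen with earlier results of these data known, and the 8 roles, given to 28 members, after values were seen. Genes named are the 12 members with the largest control difference, in each test the 4 highest and 4 lowest called members whose brighter group averaged at least 8, those next to the limit of the rule, and of each list up to 3 genes that are not members. Members named outside this rule were chosen after their values were seen, for their role. Alternatives were the replicate block, all arrays in 1 fit, quantile normalization, median centring, an added 16, a filter on dim probe sets, other thresholds, arrays left out and other control arrays for the choice of members. Counts against control under other scalings, and counts over pairs of comparisons without replicate 3 of Recovery08hr, were added after seeing the data. A promoter motif search was not run, since no promoter sequences were at hand.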

Additional observations from a re-analysis of the deposited data

Results flagged for a closer look

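In 2 of 70 control groups of the named genes examined, 1 array lay far from the rest, where chance alone gives about 1 in 20. AT1G64500 had a signal of 45.4 on replicate 3 of Control08hr at 18 days, against 70.5 to 80.4 on the other Control08hr arrays. AT4G12980 had 1890 on replicate 1 of Control24hr at 18 days, against 2289 to 2699.9 on the other Control24hr arrays.

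For 19 of the 35 named genes the morning minus afternoon difference in recovery differed from that in heat, by a test of the difference itself on the log2 scale (limma, adjusted p under 0.05 and at least 2-fold). The 4 highest and 4 lowest genes called in this same test were named for it, so the count is in part fixed by the naming. Of all 76 members 20 were called positive and 12 negative, against 15.1% and 14.5% of all probe sets. The difference was more positive in recovery for AT1G13650 (9.50), XTH32 (5.90), AT5G48490 (5.74), AT4G12980 (3.82), AT1G62510 (3.58), AT1G69160 (3.02), AT1G65490 (2.57), AT3G28270 (2.41), AT1G55960 (1.26) and AT5G65380 (1.16). It was more negative in recovery for AT1G68440 (-3.40), HYH (-2.88), AT5G01740 (-2.61), AT5G54130 (-2.54), AT2G28200 (-2.20), AT5G42760 (-1.86), GR1 (-1.70), BGLU40 (-1.63) and ARL (-1.54). In 5 of these genes the arrays of a group were widely spread (SD of at least 0.8 on the log2 scale), with signals of 337, 117 and 1074 for XTH32, 1677, 1518 and 4251 for AT1G65490 and 8.22, 13.6 and 28.6 for AT1G13650 at Recovery08hr, 1.67, 2.73 and 11.1 for AT1G13650 at Heat24hr, 259, 132 and 64.8 for AT5G01740 at Recovery24hr and 55.4, 19.9 and 58.1 for AT5G54130 at Heat08hr.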

How the results depend on the processing

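Deviations of same-numbered arrays from their group means correlated at -0.14 to 0.23, so any pairing by replicate number was weak. For Recovery08hr against Heat24hr, same-numbered arrays correlated at 0.096, 0.151 and 0.204. The highest r with another number was 0.036, 0.091 and -0.155. In each other pair of groups the same number did not give the higher r for every replicate. With the replicate block in the fit, the members called were 2 higher and 13 lower in heat (Heat24hr against Heat08hr) and 0 and 0 in recovery (Recovery24hr against Recovery08hr), where 0 of all probe sets were called too although 7300 had an unadjusted p under 0.05. The block left the other 3 comparisons within 1.5 times their counts. At an adjusted p under 0.01 the counts were 3 higher in heat, 0 and 0 in recovery, 3 lower for Recovery24hr against Heat24hr and 6 lower for Recovery08hr against Heat08hr. Without a fold threshold 8 were lower for Recovery24hr against Heat24hr. The median over the members was -0.97 in heat and 2.005 for Recovery08hr against Heat08hr over the probe sets that passed the filter on dim signals, 1.61 after quantile normalization and 1.48 after centring for Recovery24hr against Heat24hr, and 1.19 after centring for Recovery08hr against Heat08hr. Against control it was 0.49 (quantile) and 0.57 (centred) at Heat08hr, and -3.22 (quantile), -3.13 (centred) and -3.27 (16 added) at Heat24hr. Centring left 9 members lower at Heat08hr, and quantile normalization made 1 higher at Recovery24hr.

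With 1 array left out, members called in heat were 4 to 4 higher and 17 to 25 lower, in recovery 0 to 9 and 0 to 19, for Recovery24hr against Heat24hr 48 to 52 and 3 to 5, for Recovery08hr against Heat08hr 37 to 40 and 9 to 11, and for the interaction 17 to 22 and 12 to 13. Against control, 1 to 3 members were higher at Heat24hr and 0 to 1 at Recovery24hr. The rule gave 73 to 78 members with 1 control array left out, 72 from plants of 18 and 19 days, 81 after quantile normalization (73 shared), 77 after centring (73 shared) and 73 with 16 added (all shared). Of 528 values of single genes under the alternatives, 471 kept their call, 57 lost it, all under the replicate block or with an array left out, and 0 changed sign. Dim signals limit folds: 55 of the 76 members averaged below 8 at Heat24hr, 42 at Heat08hr, 25 at Recovery24hr and 22 at Recovery08hr, on the log2 scale.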

Other observations

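None of the genes in the other lists is a member, and only the listed genes with a named probe set were counted. Of all probe sets, 18.8% were called higher and 11.3% lower at Recovery24hr than at Heat24hr. At Recovery08hr against Heat08hr these shares were 16.4% and 12.1%. In the flavonoid and phenylpropanoid list (4 of 16 named), 3 were higher at Recovery24hr than at Heat24hr (C4H, DFR and UGT78D1) and none lower, and 2 were higher at Recovery08hr than at Heat08hr (C4H and UGT78D2). C4H, the cinnamate 4-hydroxylase, had a mean signal of 2559 at Recovery24hr, against 679.8 at Heat24hr (1.92 ± 0.18, limma adjusted p = 0.00113), the direction of CHIL. In the list of shade, auxin and growth genes (4 of 12 named), all 4 were lower at Recovery08hr than at Heat08hr, and at Recovery24hr against Heat24hr 1 was higher and 1 lower. The higher one was EXPA8, an expansin that loosens cell walls, with 521 at Recovery24hr, against 4.89 at Heat24hr, a signal near the lowest of the scale (7.1 ± 0.84, adjusted p = 0.00215), and the lower one was HAT2 (-1.87 ± 0.42, adjusted p = 0.0172). In the light-harvesting list (3 of 22 named) all 3 were lower at Recovery08hr than at Heat08hr, among them LHCB4.2 with 992, against 20268 (-4.35 ± 0.16, adjusted p = 0.000369). Of the chlorophyll and carotenoid list (4 of 22 named), 2 were higher (PORB and LCYB) and 1 lower (CHLM) at Recovery24hr than at Heat24hr, and none was higher and 2 were lower (PORB and CHLM) at Recovery08hr than at Heat08hr. PORB, which reduces protochlorophyllide, had 5770.1 at Recovery24hr, against 1346 at Heat24hr (2.03 ± 0.31, adjusted p = 0.00469), and 483 at Recovery08hr, against 10348 at Heat08hr (-4.43 ± 0.16, adjusted p = 0.000354). Both named glucosinolate genes (2 of 16), BCAT4 and UGT74B1, were higher at Recovery24hr than at Heat24hr, by 3.11 ± 0.51 (adjusted p = 0.00565) and 1.2 ± 0.16 (adjusted p = 0.00293).

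All 4 named heat-shock genes (of 13) were lower in recovery than in heat at both clock times. HSP22.0, ROF2 and HSA32 still stayed above control in recovery. Their mean signals were 4357, 1002 and 784 at Recovery24hr, against 51.7, 191 and 139 at Control24hr. At Recovery08hr they were 6741, 2158.5 and 947, against 38.0, 133 and 94.0 at Control08hr. HSFA2 had 27.6 at Recovery24hr, against 14.8 at Control24hr, with overlapping arrays. Its difference between recovery and heat was -8.35 ± 1.14 in the morning (limma adjusted p = 0.00318) and -3.45 ± 0.71 in the afternoon (adjusted p = 0.0138). The Recovery24hr signals of HSFA2 spanned 2.58 to 57.2, down to near the lowest of the scale, so the size of its morning fall is not well measured. Of the starvation and darkness list (2 of 13 named), MIOX2 was higher and AKINBETA1 lower in recovery at both clock times. CDF5, the only named gene of 13 of light signalling and day length, was higher at Recovery24hr than at Heat24hr by 3.0 ± 0.35 (adjusted p = 0.00198), and SIR, the only one of 12 of nitrate and sulphate assimilation, was called in none of these comparisons. WUS, the only named meristem marker of 3, had mean signals of 2.39 to 14.3 over the groups, and no flower or seed marker had a named probe set.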
